A study of Mus musculus with 8 samples.

Results

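A set of 9 germline genes was examined in the brains of mice lacking Tet1 (KO) and of wild-type (WT) mice, to ask whether genes that somatic tissues keep silent by DNA methylation of their promoters stayed silent without Tet1. The 9 genes, Dazl, Ddx4, Mael, Sycp1, Sycp3, Stk31, Tdrd1, Tex14 and Hormad1, were chosen by name among 28895 gene names on the array. They had 11 of its 39429 probes, with 2 probes for Sycp3, 2 for Hormad1 and 1 for each other gene. Expression was measured on 4 two-colour Agilent arrays, each with 1 KO sample labelled with Cy5 and 1 WT sample labelled with Cy3. The groups were KO cortex, WT cortex, KO hippocampus and WT hippocampus, with 2 samples in each. All animals were naive mice of a 129 C57BL6 background, and the KO animals carried the genotype Tet1 KO. The labels give no allele, age or sex, and do not say whether replicates of a group came from separate animals. The p-values therefore cover the spread between samples alone, and that spread may be technical. No array had the dyes swapped, so genotype and dye cannot be told apart in any value that sets KO against WT.

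Tet1 oxidises 5-methylcytosine, a step in the removal of DNA methylation, and in mouse primordial germ cells it is known to be needed for the full activation of meiotic genes. Germline genes of this kind have promoters rich in CpG sites that become methylated around implantation in the mouse, and they stay off in somatic tissues, brain included. In mouse embryonic stem cells many of them are also held off by a Polycomb complex that contains E2F6 and the pair MGA and MAX, which binds the E-box hexamer.

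The promoters of all 9 genes were found in the RefSeq table (build GRCm38.p6), which gives windows of 300 bases, from 250 before to 50 after a transcript's start. The first listed window of each gene held between 15 CpG sites (Sycp3) and 38 (Ddx4), against a median of 7 over 32851 windows. The other first windows held 20 in Tdrd1, 20 in Tex14, 21 in Sycp1, 24 in Mael, 24 in Hormad1, 28 in Dazl and 29 in Stk31. The ratio of observed to expected CpG was 0.67 (Sycp3) to 0.98 (Ddx4) in these windows, against a median of 0.38 over all windows. A later Tdrd1 window, about an alternative start, held 3 CpG sites. The 250 bases before the start are shown, with the CpG sites in capitals, for Ddx4, the only one of the 9 genes above background in every sample, and for Mael and Sycp1, which were above it in no sample. The Ddx4 stretch is chr13:112652311-112652560, the Mael stretch chr1:166238745-166238994 and the Sycp1 stretch chr3:102936101-102936350, all on the minus strand.
Ddx4: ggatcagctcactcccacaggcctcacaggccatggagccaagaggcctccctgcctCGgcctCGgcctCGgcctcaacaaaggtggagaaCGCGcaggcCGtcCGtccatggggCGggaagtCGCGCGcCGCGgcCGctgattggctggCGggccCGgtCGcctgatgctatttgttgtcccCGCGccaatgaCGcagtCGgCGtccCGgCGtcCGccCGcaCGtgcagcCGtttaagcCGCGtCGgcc
Mael: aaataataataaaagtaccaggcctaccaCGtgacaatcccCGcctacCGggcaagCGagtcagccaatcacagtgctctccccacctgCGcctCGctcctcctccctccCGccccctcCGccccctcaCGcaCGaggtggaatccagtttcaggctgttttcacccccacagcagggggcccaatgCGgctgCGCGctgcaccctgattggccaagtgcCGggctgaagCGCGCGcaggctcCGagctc
Sycp1: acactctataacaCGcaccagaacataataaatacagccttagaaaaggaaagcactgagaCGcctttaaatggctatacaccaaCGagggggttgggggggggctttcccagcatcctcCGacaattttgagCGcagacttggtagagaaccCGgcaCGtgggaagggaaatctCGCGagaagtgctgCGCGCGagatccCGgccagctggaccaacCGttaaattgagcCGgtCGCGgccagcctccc
These stretches hold 31 CpG sites in Ddx4, 18 in Mael and 17 in Sycp1.

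**Figure D1:**
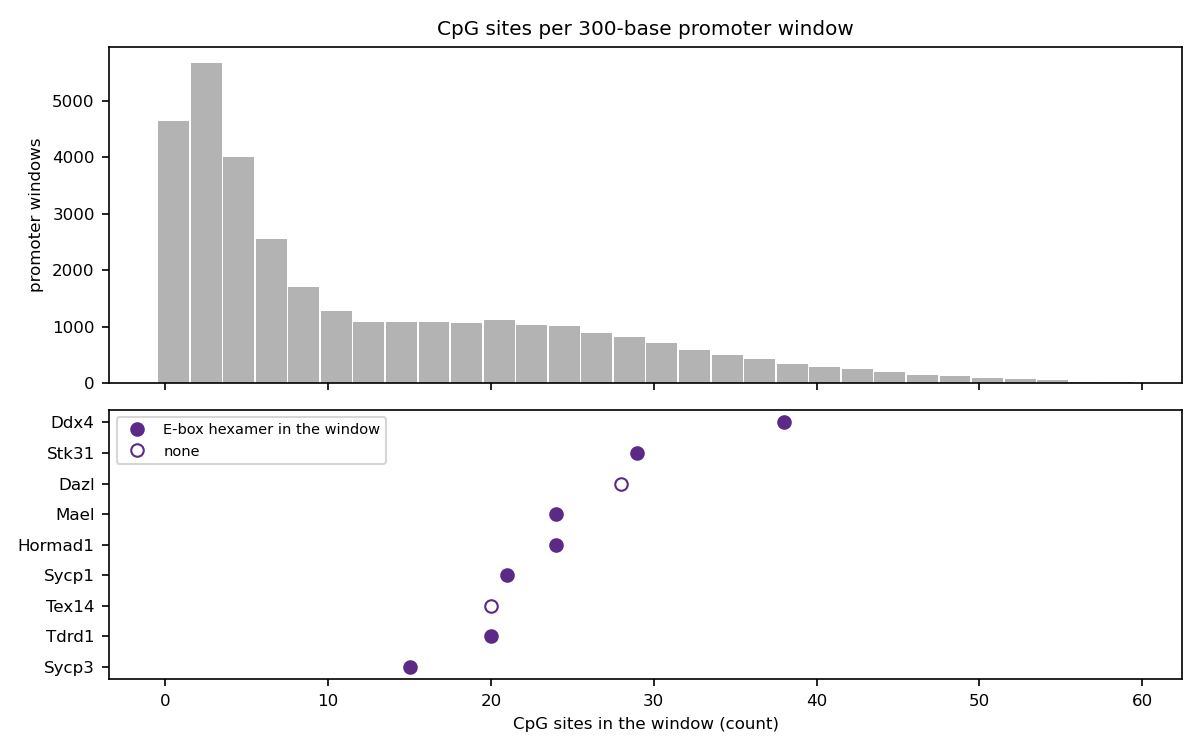
The upper panel counts 300-base promoter windows by their number of CpG sites (32851 windows, GRCm38.p6), and the lower panel places the first window of each of the 9 genes on the same axis. All 9 lie above the overall median of 7, from 15 in Sycp3 to 38 in Ddx4, and filled points mark windows that hold the E-box hexamer.

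The E-box hexamer CACGTG, which reads the same on both strands, lay in a window of 7 of the 9 genes, against 8.09% of all 27025 genes in the table. Dazl and Tex14 had none in these windows. The heptamer GGCGGGA, a core of E2F6 sites searched on both strands, lay in windows of 4 of the 9 genes (Ddx4, Hormad1, Mael and Tex14), against 12.7% of all genes. No match to the one motif overlapped a match to the other. Each motif itself contains a CpG, and the first windows of these genes hold more CpG sites than the median window. The share of all genes is therefore not a like background, and windows of like CpG content were not compared. A match is a description of the letters and shows no binding. The hexamers of the first windows are shown in capitals with 10 bases on each side, since the 7 genes share them although the choice of the genes did not use them.
Ddx4, 29 bases before the start: cgtccgcccgCACGTGcagccgttta
Hormad1, 57 bases before the start: aagggtgcgcCACGTGccagtgacag
Hormad1, 20 bases before the start: gcgcactgcgCACGTGctgaccggag
Mael, 223 bases before the start: ccaggcctacCACGTGacaatccccg
Stk31, 55 bases before the start: gccggccaccCACGTGaccagggctg
Sycp1, 94 bases before the start: gagaacccggCACGTGggaagggaaa
Sycp3, 64 bases before the start: cgttggctccCACGTGagaacgggca
Sycp3, 43 bases before the start: gggcatggagCACGTGctaggaggcg
Tdrd1, 11 bases before the start: gggctgcgcgCACGTGggagtaaact
The hexamers began between 11 bases (Tdrd1) and 223 bases (Mael) before the start.

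The scanner files place the probes on mouse build mm9. The Ddx4 probe (A_51_P223569) lies at chr13:113388616-113388675 and the Dazl probe (A_52_P271166) at chr17:50418923-50418982. The Sycp3 probes lie at chr10:87932348-87935438 (A_51_P274465) and chr10:87935675-87935734 (A_55_P2018407), and the first of these maps over 3091 bases and therefore spans a splice junction. The Hormad1 probes lie at chr3:95389076-95389135 (A_55_P1974869) and chr3:95389116-95389495 (A_51_P497870). These 2 share 20 bases and are not separate views of the transcript. The other probes lie at chr1:168131583-168131642 (Mael), chr6:49397301-49397360 (Stk31), chr3:102622573-102622632 (Sycp1), chr19:56940470-56940951 (Tdrd1) and chr11:87369212-87369271 (Tex14). Introns, exons and UTRs of build mm9 were not looked up here. For each gene read by 2 probes, 1 probe is shown in the sense of the transcript, because the signal of these genes depended on the probe. The capitals mark the 20 bases that the Hormad1 probes share.
Hormad1 A_55_P1974869: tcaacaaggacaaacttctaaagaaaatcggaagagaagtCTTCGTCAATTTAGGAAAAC
Sycp3 A_51_P274465: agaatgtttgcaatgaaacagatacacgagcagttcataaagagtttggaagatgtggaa

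The markers of the labelled tissues matched the labels. The summed level of 5 cortex markers was 50630 to 53900 in KO cortex and 44970 to 46750 in WT cortex, against 22040 to 25660 in KO hippocampus and 19100 to 21550 in WT hippocampus (normalised units). Neuron, astrocyte, oligodendrocyte and microglia markers were well above background in all 8 samples. Some markers differed between the KO (Cy5) and WT (Cy3) samples. The summed level of 4 endothelial markers was 11090 to 13950 in the KO samples and 15820 to 18380 in the WT samples. Over all probes, 21.6% had a KO over WT ratio below 0 on all 4 arrays. That of 4 thalamus markers was 3053 and 2881 in KO hippocampus and 5353 and 12190 in WT hippocampus, against 5089 and 5250 in KO cortex and 5199 and 5034 in WT cortex. In the mean of both tissues the microglia genes C1qa and Trem2, the endothelial gene Cldn5, 1 of 3 probes of the astrocyte gene Gfap and 1 probe of the thalamus gene Tcf7l2 were called lower in KO in limma, by -0.53, -0.41, -0.59, -0.78 and -0.32 on the log2 scale. Under median centring C1qa, Trem2 and Cldn5 had ratios above 0, though below the median of the tested probes, and the other directions held under all scalings run. These calls were 2 of 7 tested microglia probes, 1 of 4 endothelial, 1 of 7 astrocyte and 1 of 5 thalamus probes. Over all tested probes 4.07% were called lower. Of the tested probes, 2 of 7 microglia and 3 of 7 astrocyte probes had mean ratios above 0, against 0 of 4 endothelial and 0 of 5 thalamus probes. The cortex gene Rorb (0.43) and the hippocampus gene Dsp (0.71) were called higher in KO with 1 probe each. The other Rorb probe, above background in all 8 samples, was below 0 on all 4 arrays (mean -0.11, adjusted p = 0.201 in limma). The other Dsp probe, above background in no sample, was also below 0 on all 4. The summed level of 6 choroid plexus markers differed between replicates, with 183200 and 113100 in KO cortex, 93500 and 7202 in WT cortex, 5107 and 20020 in KO hippocampus, and 4190 and 266000 in WT hippocampus. The part of these markers in the values below was not tested. Of the 3 Tet1 probes, 2 gave log2 ratios below 0 on all 4 arrays and 1 above 0 on all 4, and none passed the test. Where a probe lies relative to the deleted part of Tet1 is not stated in the labels, so these probes do not check the labels.

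Of the 9 genes, 4 (Mael, Sycp1, Tdrd1 and Tex14) were well above background in no sample of either genotype, and Stk31 and Hormad1 in 1 KO sample each. A spot counts as well above background where the scanner software marks it so in the channel that holds the sample. In KO cortex 3 and 4 of the 11 probes were well above background (66.1% and 65.9% of all probes), against 2 and 3 in WT cortex (49.6% and 48.8%). In KO hippocampus there were 2 and 3 (65.8% and 66.3% of all probes), against 1 and 2 in WT hippocampus (50.4% and 48.5%). The other 5 of the 11 probes, and 30.2% of all probes, were well above background in no sample. As shares, the germline counts are 18.2% to 36.4% in the KO samples and 9.09% to 27.3% in the WT samples. The share was higher in KO over the whole array too. Over all probes, 4443 (11.3%) were well above background in all 4 KO and no WT samples, against 1 (0.00254%) in all 4 WT and no KO samples. The median signal of all probes was 3.24 to 3.66 times that of the 153 negative-control spots in the KO channel and 1.35 to 1.43 times in the WT channel. In tissue RNA, fewer cells of a type and less RNA per cell cannot be told apart.

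**Figure D2:**
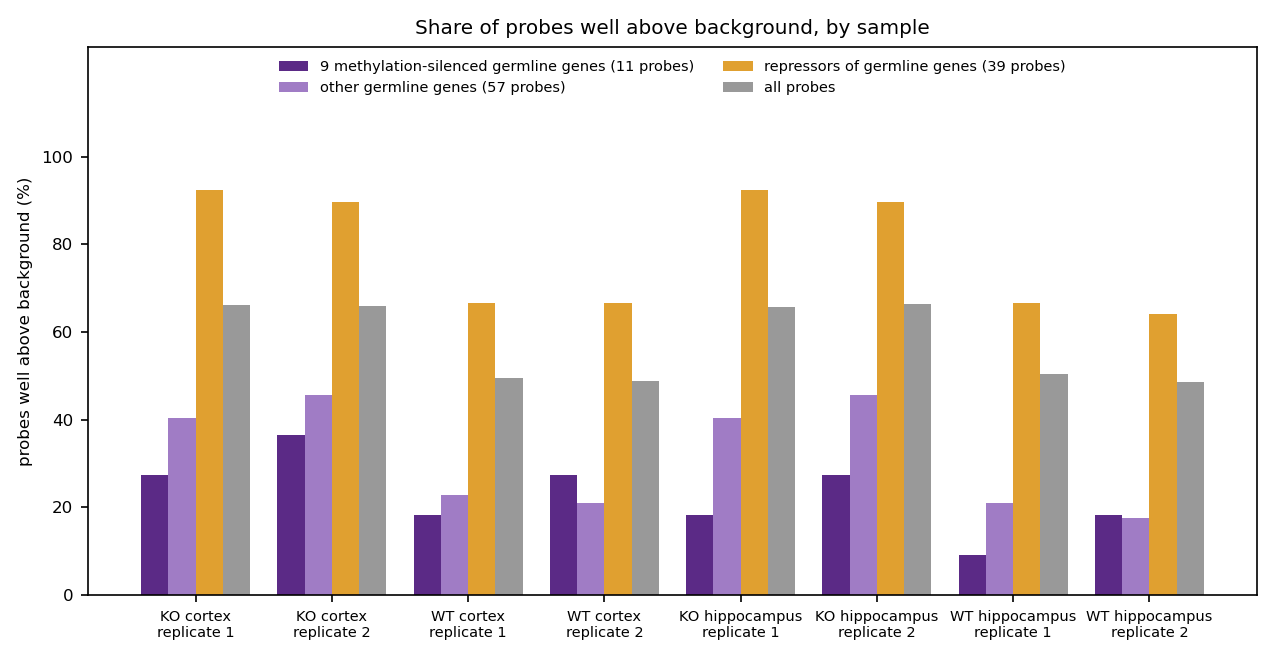
Bars give the percentage of probes well above background in each sample for the 9 germline genes, for other germline genes, for known repressors of germline genes and for all probes. In every sample the 9 genes (9.09% to 36.4%) lie below all probes (48.5% to 66.3%), and the KO bars of the other 3 sets lie above their WT bars.

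Ddx4, the vasa RNA helicase of germ granules, was the only one of the 9 genes well above background in all 8 samples, as were 46.6% of all probes. Its scanner signal was 212 and 195 in KO cortex and 229 and 223 in KO hippocampus, where negative controls had medians of 79.3 to 80.8. It was 349 and 425 in WT cortex and 392 and 452 in WT hippocampus, where negative controls had medians of 247 to 263. The 2 dyes have different scales, so genotypes were compared only after normalisation. The normalised log2 level was then 7.364 ± 0.117 in KO cortex and 8.003 ± 0.352 in WT cortex (SD, n = 2 each). In hippocampus it was 7.623 ± 0.0656 in KO and 8.265 ± 0.293 in WT (SD, n = 2 each). Every KO sample lay below every WT sample. The share of all probes with such a separation is not given here.

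On the arrays, the log2 ratio of KO over WT for Ddx4 was -0.31 and -0.97 in cortex and -0.39 and -0.90 in hippocampus. It was below 0 on all 4 arrays, as were 21.6% of all probes, and replicate 2 had the larger difference in both tissues. The mean was -0.64 ± 0.20 in cortex (SE of the limma fit, n = 2, adjusted p = 0.173) and -0.64 ± 0.20 in hippocampus (n = 2, adjusted p = 0.162). Over both tissues it was -0.64 ± 0.14, with an adjusted p of 0.0528 in limma, just outside the threshold of 0.05. Adjusted p-values are Benjamini-Hochberg values over 26016 probes, those marked well above background in both samples of some group. The difference between tissues was 0.003 ± 0.285 (adjusted p = 1 in limma). All 4 arrays gave a ratio below 0 under each of the 4 other scalings run. The size moved, to -1.20 with the scanner software's processed signals and to -0.40 with outlying local backgrounds kept. The adjusted p of the mean was 0.000161 to 0.164 over 14 alternatives, 5 of which passed.

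Dazl, an RNA-binding protein that promotes translation in germ cells, was well above background in all 4 KO samples and in both WT cortex samples, but in neither WT hippocampus sample. Its scanner signal was 304 and 312 in KO cortex and 364 and 342 in WT cortex. In hippocampus it was 272 and 256 in KO and 306 and 321 in WT. The WT hippocampus values exceeded 98.7% and 99.4% of the negative-control spots, so they lay at the edge of the background. The KO over WT log2 ratio was -0.06 and 0.18 in cortex and 0.65 and 0.31 in hippocampus, so the cortex arrays differed in sign.

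The cortex mean for Dazl was 0.06 ± 0.11 (SE of the limma fit, n = 2, adjusted p = 0.804), and the normalised log2 levels were 7.91 ± 0.05 in KO cortex and 7.85 ± 0.12 in WT cortex (SD, n = 2 each). In hippocampus WT was not well above background, so only a bound is given, 1.34-fold for the mean KO over WT level in the main fit. The log2 ratio was 0.48 in that fit (adjusted p = 0.114 in limma), 0.37 with outlying local backgrounds kept and 0.30 with the authors' deposited values. The bound is therefore no lower limit over scalings. For such bounds the dim group takes, on each array, its own level or that of the dimmest probe marked well above background, whichever is higher. Over both tissues the adjusted p was 0.0921. The cortex minus hippocampus difference of the log2 ratios was -0.43 ± 0.16 (unadjusted p = 0.0482, adjusted p = 1 in limma). No probe on the array passed for that difference, although 1097 had an unadjusted p under 0.05. Dazl therefore did not pass in either tissue, in their mean or in their difference. Of 13 alternatives, 1 gave a call, median centring, with an adjusted p of 0.0113 in hippocampus and 0.0406 in the mean of both tissues in limma. With that centring, in which loess is left out, the median of the tested probes was 0.48. Relative to that median the mean ratio of Dazl was -0.29, against 0.27 after loess, so its direction depends on the scaling.

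The count of probes called was small in each tissue and large in the mean of both. In cortex 10 of 26016 probes passed (0.0384%), in hippocampus 1 (0.00384%) and in the mean of both tissues 3229 (12.4%). Of the 11 germline probes only those of Dazl and Ddx4 passed the filter on dim probes, and neither was called in any of the 3. The other 9 probes were not tested. Neither passed the filter through KO samples alone, since both WT cortex samples were above background for each.

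**Figure D3:**
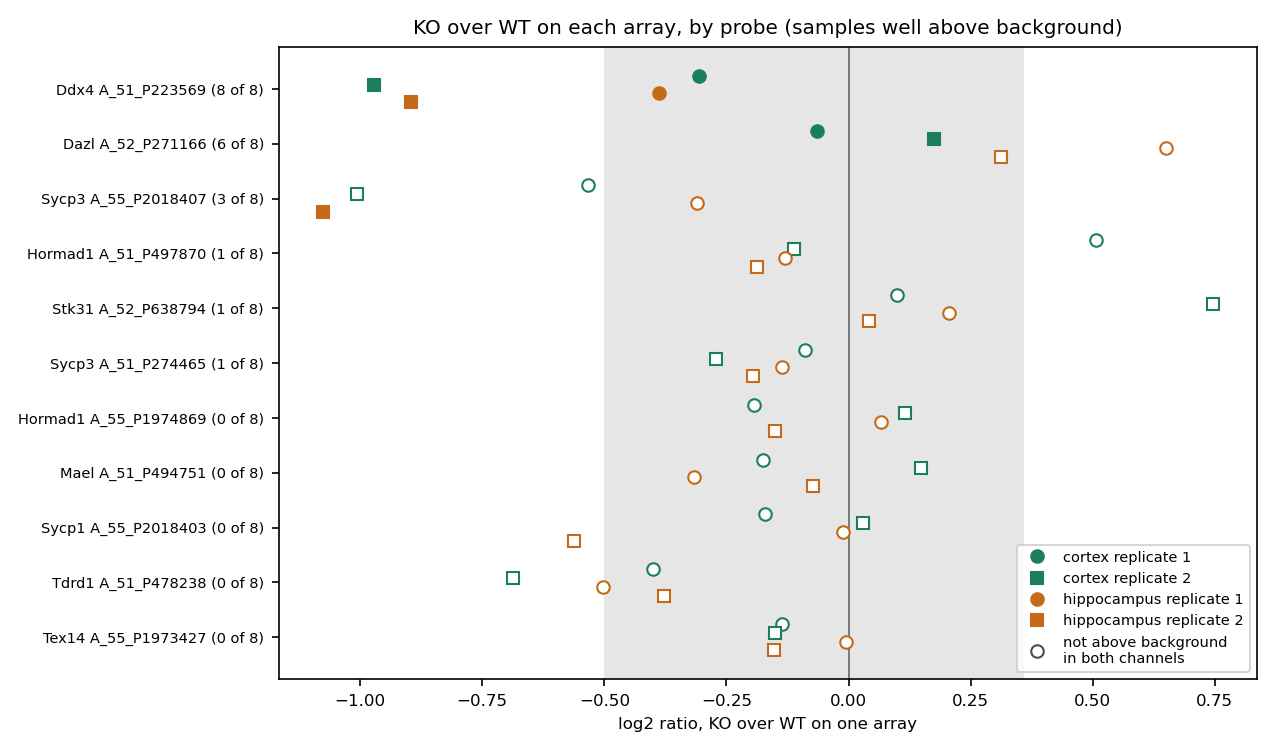
Points give the log2 ratio of KO over WT on each of the 4 arrays for the 11 probes, ordered by the number of samples well above background. Filled points are arrays where both channels were well above background, and the grey band covers the 5th to 95th percentile (-0.50 to 0.36) of single-array ratios over the 11889 probes above background in no sample. Ddx4 lies left of 0 on all 4 arrays, and most other points lie inside the band.

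The synaptonemal complex genes gave little signal, and that depended on the probe. Sycp3, a component of the axial elements of meiotic chromosomes, was read by 2 probes. The probe A_55_P2018407 had a signal of 101.1 and 112 in KO cortex, 300 and 362 in WT cortex, 100.5 and 155 in KO hippocampus, and 306 and 416 in WT hippocampus. It was well above background in replicate 2 of WT cortex, KO hippocampus and WT hippocampus, and in no KO cortex sample. The KO over WT log2 ratio was -0.53 and -1.01 in cortex and -0.31 and -1.08 in hippocampus. No fold is given for cortex, since only 1 of the 2 WT cortex samples was well above background. Without the filter, which the probe did not pass, the mean over both tissues had an adjusted p of 0.0312 in limma, and 16.4% of 39366 probes passed. The ratio was below 0 on all 4 arrays under the 4 other scalings too.

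The other Sycp3 probe, A_51_P274465, had a signal of 78.0 and 123 in KO cortex and 253 and 302 in WT cortex. In hippocampus it had 82.6 and 95.4 in KO and 273 and 287 in WT. It was well above background in replicate 2 of KO cortex only, and its 4 array ratios lay between -0.27 and -0.09. Both Sycp3 probes were brighter in replicate 2 than in replicate 1 in all 4 groups after normalisation, as were 8.41% of all probes. Sycp1, the transverse filament protein that joins paired chromosomes, was above background in no sample. Its signal was 75.2 to 84.8 in the KO samples, against 236 to 270 in the WT samples. These values exceeded 17.0% to 75.8% of the negative-control spots in KO and 7.19% to 68.6% in WT, so they lay among them. In KO hippocampus replicate 1 the local background of the Sycp1 spot was marked as outlying.

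Hormad1, which marks unpaired chromosome axes in meiosis, was above background in 1 KO cortex sample with 1 of its 2 probes. That probe, A_51_P497870, had 126 and 88.9 in KO cortex, against 242 and 251 in WT cortex. In hippocampus it had 81.8 and 81.9 in KO, against 240 and 238 in WT. The sample with 126 was replicate 1, whose array ratio was 0.51, while the other 3 arrays gave -0.11 to -0.19. The overlapping probe A_55_P1974869 had 77.4 and 88.1 in KO cortex, with 77.4 in that same replicate 1, and 248 and 260 in WT cortex. In hippocampus it had 79.0 and 87.9 in KO and 258 and 273 in WT, and was above background in no sample. The signal of 126 was therefore not shared by the overlapping probe.

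Mael, Tdrd1 and Stk31 belong, like Ddx4, to germ granules or to the piRNA pathway, which silences transposons in germ cells. Of these 3, Stk31 was above background in 1 sample and the other two in none. Stk31, a kinase with a Tudor domain, had a signal of 89.1 and 134 in KO cortex and 92.6 and 104 in KO hippocampus. It had 249 and 252 in WT cortex and 263 and 264 in WT hippocampus. Only KO cortex replicate 2 was well above background. Its array ratios were 0.10 and 0.75 in cortex and 0.21 and 0.04 in hippocampus, above 0 on all 4, as were 23.7% of all probes. Under median centring its mean ratio was -0.62, so this direction also depends on the scaling. The probe did not pass the filter, and the unfiltered limma fit gave an adjusted p of 0.151 for the mean of both tissues.

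Mael, a piRNA pathway protein, had a signal of 77.6 to 94.2 in KO and 263 to 275 in WT, above background in no sample. Tdrd1, a Tudor protein that binds Piwi proteins, had 90.6 and 94.5 in KO cortex and 279 and 317 in WT cortex. In hippocampus it had 83.0 and 77.7 in KO and 296 and 282 in WT, and it was above background in no sample. Its array ratios were -0.40 and -0.69 in cortex and -0.50 and -0.38 in hippocampus. In the unfiltered limma fit the mean over both tissues had an adjusted p of 0.0169, among 16.4% of probes that passed. With both groups below background this is no fold of a transcript, and no fold is given. Tex14, a protein of the bridges between germ cells, had 99.9 to 108 in KO and 271 to 291 in WT, also above background in no sample, with array ratios between -0.15 and -0.01.

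**Figure D4:**
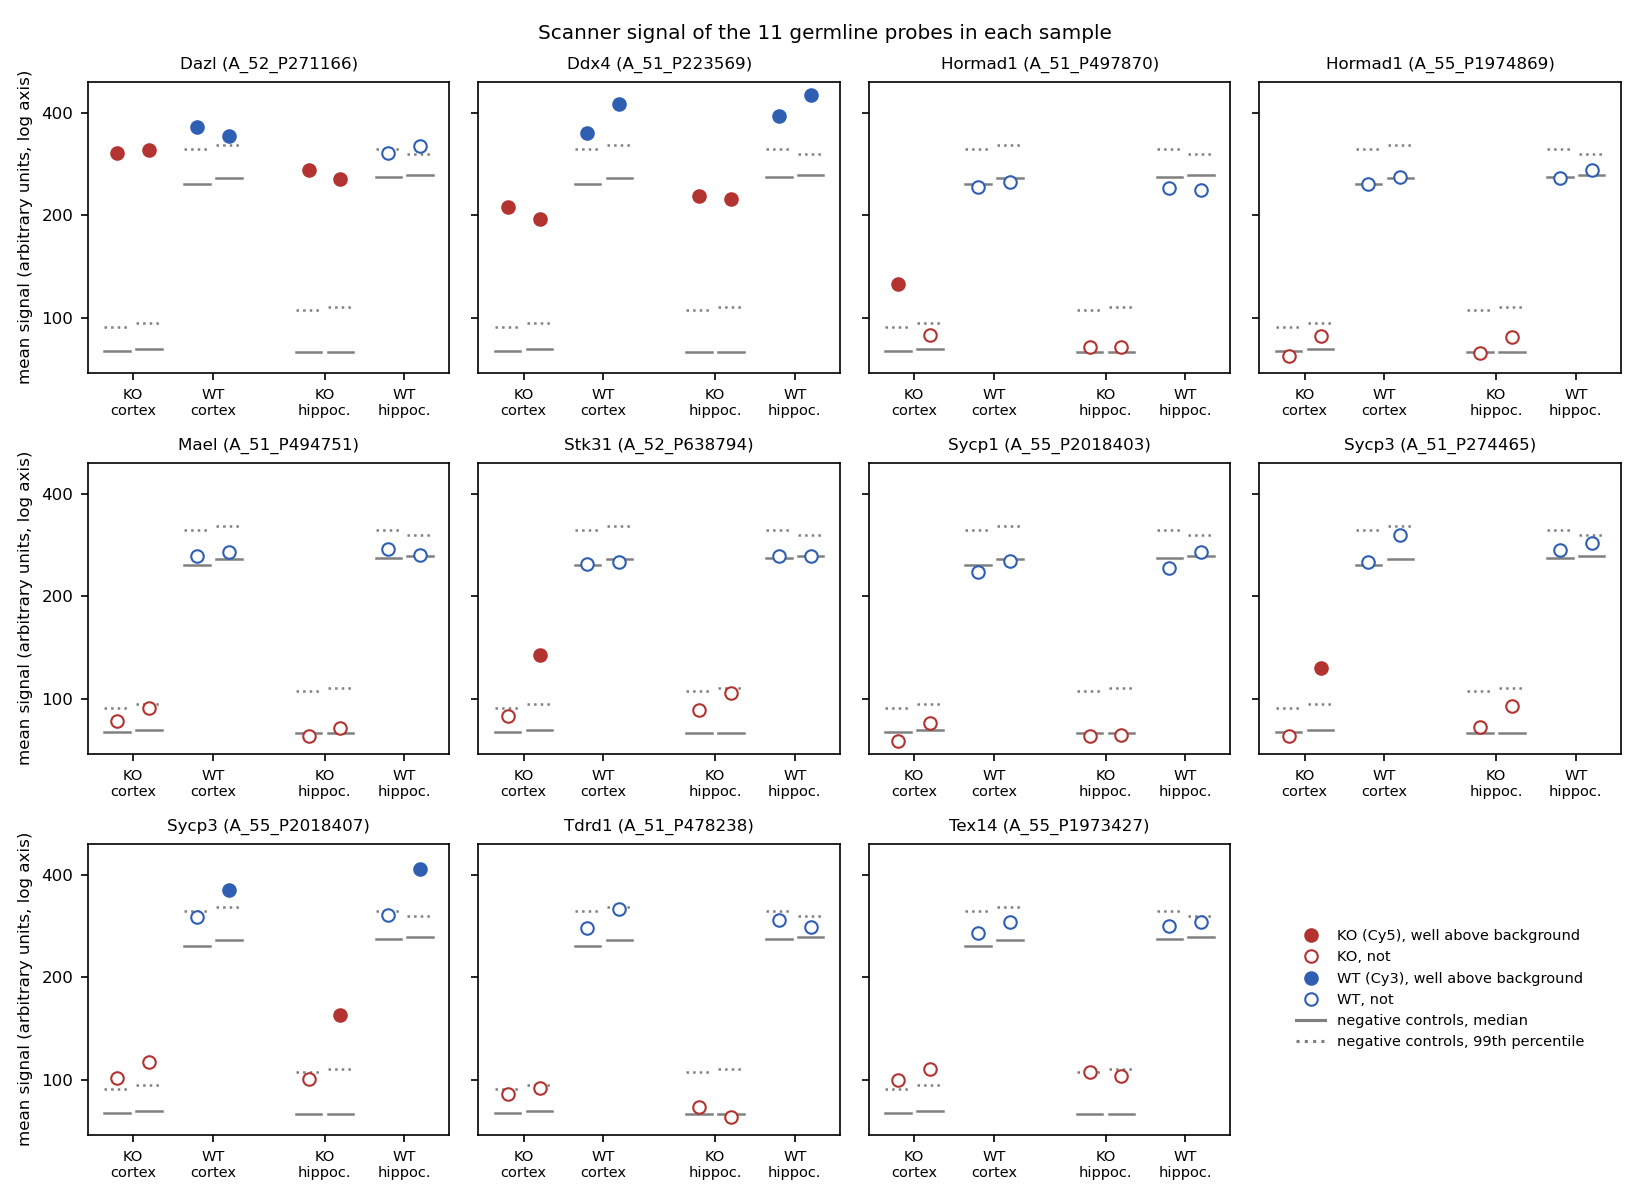
Each panel gives the scanner signal of 1 probe in the 8 samples on a log axis, with KO left of WT within each tissue. Solid and dotted grey lines are the median and 99th percentile of the negative controls of that sample. Filled points are well above background, in all 8 samples for Ddx4, 6 for Dazl, 3 for 1 Sycp3 probe, and 1 or none for the rest.

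Under a laxer rule of the scanner software, signal positive and significant over background, more of the 11 probes were detected. There were 5 and 8 in KO cortex, 3 and 5 in WT cortex, 5 and 7 in KO hippocampus, and 4 and 5 in WT hippocampus. Over all spots of the array the share detected under that rule was 78% to 79.4% in the KO samples and 64.7% to 66.8% in the WT samples, so here too it was higher in KO over the whole array. Sycp1 was detected in no sample under that rule either. Under it Ddx4, Dazl and the Sycp3 probe A_55_P2018407 were detected in all 8 samples. The count of detected probes thus differed between the rules. No limit of detection was measured, so a lack of signal does not show a lack of transcript.

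Between tissues of 1 genotype, where the dye is the same, neither Dazl nor Ddx4 passed. In KO, the cortex minus hippocampus difference was -0.02 ± 0.08 for Dazl (adjusted p = 0.907 in limma) and -0.26 ± 0.09 for Ddx4 (adjusted p = 0.143), where 12% of all probes passed. In WT, the bound for the mean Dazl level in cortex over hippocampus was 1.27-fold in the main fit. The log2 difference was 0.41 in that fit (adjusted p = 0.135 in limma) and 0.24 with the authors' deposited values. This bound too is no lower limit over scalings. Ddx4 differed by -0.26 ± 0.22 in WT (adjusted p = 0.557), where 6.66% of all probes passed.

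The 2 other genes whose normalised levels were most like those of Ddx4 over the 8 samples were Casc4 (Pearson r = 0.99) and the transcript the array calls NAP111391-1 (r = 0.97), out of 18356 probes above background in all samples. The 8 points share arrays, dyes and normalisation, and these were the highest of many correlations searched, so the r values are no evidence of a link. The KO over WT log2 ratios of Casc4 were -0.19 and -0.48 in cortex and -0.17 and -0.43 in hippocampus. Those of NAP111391-1 were smaller in size, -0.05 and -0.12 in cortex and -0.07 and -0.15 in hippocampus.

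Among 47 other genes of meiosis, germ granules and the piRNA pathway, 45 were on the array with 57 probes. Of those probes 29 were above background in no sample, and 20 of the 45 genes had no probe above it anywhere. Between 40.4% and 45.6% of the probes were well above background in the KO samples, against 17.5% to 22.8% in the WT samples. In the mean of both tissues 6 of the 24 tested probes were higher in KO and 2 lower (8.34% of all probes higher, 4.07% lower), with a median log2 ratio of 0.17 against 0.03 over all tested probes. None passed in cortex or hippocampus alone. Of the 24, 11 were above background in no WT sample, so they passed the filter through KO alone, and 8 of these had mean ratios above 0 and 3 below. Another 9 were above background in all 8 samples, with 5 mean ratios above 0 and 4 below. Of those 9, 1 was called higher and none lower.

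Tdrkh, a Tudor protein that helps trim piRNAs, was above background in all 8 samples and was higher in KO by 0.36 ± 0.05 (SE, adjusted p = 0.0277 in limma). Its array ratios were 0.19 and 0.34 in cortex and 0.46 and 0.44 in hippocampus. Tuba3a, a testis-rich alpha tubulin, was read by 2 tested probes. The one that passed was above background in all KO and 3 WT samples and was higher in KO by 0.50 ± 0.06 (adjusted p = 0.0214), while the other, above background in all 8 samples, gave 0.23 ± 0.06 (adjusted p = 0.0692). Syce1, of the central element of the synaptonemal complex, was above background in all KO and 3 WT samples and was lower in KO by -0.32 ± 0.07 (adjusted p = 0.0465). The direction of these 3 was the same under the 4 other scalings.

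The other calls were made with probes above background in no WT sample. Such probes entered the test through the KO samples alone, so their adjusted p-values are no support for a level higher in KO. Sohlh2 (a transcription factor of early germ cells, adjusted p = 0.0264), Stag3 (the meiotic cohesin, 0.0208), Dnmt3l (a cofactor of DNA methylation in germ cells, 0.0355) and 1 of 2 Brdt probes (a bromodomain protein of spermatocytes, 0.0487) were on the KO-higher side in limma. The other Brdt probe, above background in all 8 samples, gave 0.19 ± 0.05 (SE, adjusted p = 0.0641 in limma). The bound for Dnmt3l was 1.26-fold for the mean hippocampus level in the main fit, and no fold can be given for Sohlh2 or Stag3. Under median centring Sohlh2, Stag3 and Brdt turned to a ratio below 0, as did Dnmt3l relative to the median of the tested probes. Msh5, a meiotic protein of the mismatch-repair family, was above background in all 4 KO and no WT samples and yet lay on the KO-lower side (adjusted p = 0.0198 in limma).

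Of 20 late spermatid genes, a set of postmeiotic genes many of which lack CpG-rich promoters, 24 probes were on the array. Of these 7 were tested and 1 was called, for Hspa1l, a testis-rich Hsp70, on the KO-lower side (adjusted p = 0.03 in limma, above background in 4 KO and no WT samples), where 4.07% of all probes were lower. Of the 7, 5 were above background in no WT sample and passed the filter through KO alone. The median log2 ratio of the 7 was 0.10, against 0.03 over all tested probes. Of the 24 probes 25% to 41.7% were well above background in the KO samples and 8.33% in each WT sample.

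The known repressors of germline genes were mostly above background. Of 39 probes for 27 genes, 25 were above background in all 8 samples and 3 in none. In the mean of both tissues 3 of 35 tested probes were higher in KO and none lower (8.34% of all probes higher, 4.07% lower). The median was 0.14, against 0.03 over all tested probes. Of the 35, 9 were above background in no WT sample. Ehmt1, a histone H3K9 methyltransferase, was higher in KO by 0.42 ± 0.05 with 1 probe (adjusted p = 0.0237) and had 0.09 ± 0.05 with the other (adjusted p = 0.272). Trim28, a corepressor, passed with a probe that was above background in no WT sample (adjusted p = 0.0496). Its other probe, above background in all 8 samples, gave -0.06 ± 0.06 (adjusted p = 0.503). Scml2, a Polycomb protein of germ cells, passed with 1 probe above background in no WT sample (adjusted p = 0.0435). These Trim28 and Scml2 probes entered the test through KO alone, and both turned to a ratio below 0 under median centring.

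Dnmt1, which maintains DNA methylation, gave 0.00 ± 0.08 (adjusted p = 0.982 in limma) and Mga 0.16 ± 0.05 (adjusted p = 0.0882), both above background in all 8 samples. The calls in these lists share a limit with all 3229 calls in the mean of both tissues. That number was 5 with outlying local backgrounds kept, 0 with an intensity trend and robust estimation (9341 at an unadjusted p under 0.05), and 0 to 14 when any 1 array was left out.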

How the data were processed

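The deposited scanner files hold spot intensity values, and their headers name Feature Extraction 10.1.1.1. The p-value columns in them were not used, per the file headers a test of each spot by that software. The authors' deposited value table holds log2 values per channel, and the submitters' processing notes name limma for it with no version. In R 4.3.3 with limma 3.58.1, mean signals were background-corrected (normexp, offset 50), with outlying local backgrounds replaced by the array median. They were normalised by loess (span 0.3) with control spots at weight 0, and by Aquantile for single channels. The 44397 spots held 39429 probes, and 63 were left out as outlying. Probes marked well above background in both samples of some group (26016) were tested with lmFit and eBayes on 4 log ratios, 1 mean per tissue, giving 2 residual and 2.82 prior degrees of freedom. Tissues were compared within a genotype on single-channel values. Benjamini-Hochberg adjustment ran over all tested probes.

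The 9 genes, the other lists and the treatment of outlying backgrounds were chosen with earlier results of these data known. All member probes are named. From the other lists, genes called in any KO against WT comparison and up to 3 with the smallest p in the mean were eligible, with Dnmt1, Mga, cell type markers and second probes of named genes given after their values were seen. The 4 arrays limit the precision. Each array's file was deposited under both of its samples. Promoters are RefSeq's, build GRCm38.p6. The fit was tested on simulated data.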

Additional observations from a re-analysis of the deposited data

How the results depend on the processing

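The log2 ratios of Dazl and Ddx4 kept their sign, with exceptions. Under median centring the mean ratio of Dazl stayed above 0 but was -0.29 relative to the median of the tested probes. For Ddx4 the difference between tissues (0.003) became -0.037 with processed signals and -0.16 with median centring. For the KO cortex minus hippocampus difference, Dazl (-0.02) became 0.11 with processed signals and 0.0095 with the authors' table, and Ddx4 (-0.26) became 0.16 with outlying backgrounds kept. Leaving out 1 array gave -0.065 to 0.18 for Dazl in cortex, -0.33 to 0.34 for the Ddx4 tissue difference and -0.078 to 0.038 for Dazl between KO tissues. The causes were not tested. Probes called in cortex (10) numbered 770 with processed signals, 0 with outlying backgrounds kept, 20716 with median centring, 131 without the filter, 0 with trend and robust estimation and 25 with the authors' table. In hippocampus (1) they numbered 983, 0, 20107, 132, 0 and 17 in the same order, 9 with the strict filter and 5 with 1 probe per symbol. In the mean (3229) there were 5 with outlying backgrounds kept, 22062 with median centring, 6466 without the filter, 1338 with the strict filter and 0 with trend and robust estimation. Median centring gave 108 in the tissue difference (0), and processed signals gave 1014 between WT tissues (1733). Without 1 array the numbers were 0 to 4 in cortex, 0 to 1 in hippocampus, 0 to 14 in the mean, 0 to 2 in the difference, 187 to 1142 between WT tissues and 923 to 2083 between KO tissues. The lone array was then assumed to vary like the others. With the replicate block, 1257 probes passed in cortex, 1539 in hippocampus and 5331 in the mean, and Ddx4 passed in all 3 (adjusted p = 0.033, 0.0274 and 0.00733 in limma). Nothing says that the numbers pair samples. The replicate 1 minus 2 differences in log ratio had r = 0.23 between cortex and hippocampus over 26016 probes. Within a channel r was 0.27 in KO and 0.01 in WT. The fit with no replicate block, which ignores shared arrays, gave 626 in cortex and 825 in hippocampus, and Ddx4 passed in the mean (adjusted p = 0.0253). The share of germline probes detected averaged 31.8% in KO cortex, 22.7% in WT cortex, 22.7% in KO hippocampus and 13.6% in WT hippocampus. It was 59.1%, 36.4%, 54.5% and 40.9% in that order both for positive and significant signal and above the 95th percentile of negative controls, and 50% in KO cortex above the 99th. Over all spots these 2 rules gave 77.3% to 79.9% in the KO samples and 60.9% to 66.8% in the WT samples, and the 99th percentile 66.2% to 75.1% in KO and 54.8% to 58.7% in WT.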
